A study of Homo sapiens with 6 samples.

Results

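The 50 genes described are those of the ADAM, ADAMTS and ADAMTSL families: 26 with an ADAM symbol (ADAMDEC1 among them), 19 with an ADAMTS symbol and 5 with an ADAMTSL symbol, chosen by symbol alone from the 27469 genes of a count table. ADAMs are membrane-anchored proteins with a metalloproteinase and a disintegrin domain, and the active ones release the outer parts of other membrane proteins, among them growth factors, cytokines, adhesion molecules and the amyloid precursor protein. ADAMTS proteinases are secreted and carry thrombospondin repeats that hold them in the extracellular matrix, where they cut proteoglycans, procollagens and other matrix proteins. ADAMTSL proteins share the repeats but have no proteinase domain, and several bind fibrillin microfibrils. Microglia are known to use ADAM10 and ADAM17 to shed surface receptors such as TREM2.

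The cells were HMC3, a line of human microglia immortalised with the SV40 large T antigen. One group of 3 libraries came from cells given the cytokine interleukin-33 (IL-33) for 24 h, and the other group of 3 libraries was labelled Control, with no further description of what those cells received. RNA was read by 3' sequencing, which counts a tag near the end of each polyadenylated transcript, so that counts can be compared between genes without division by length. Whether the 3 libraries of a group are 3 cultures is not stated, and the spread behind every p-value may therefore be technical.

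The IL-33 libraries held between 8294747 and 10217529 counts and the Control libraries between 5739947 and 9933395. Control 3, the shallowest, stood apart: it lay at 55.0 on the first principal component (35.4% of the variance), with the other libraries between -18.0 and 0.86. For members described as resting on it, values without it are given too. Of 15 microglia and macrophage markers, 9 had 0 counts in all libraries, among them ITGAM, P2RY12, TMEM119, CX3CR1 and SPI1, and the summed level of the list was 3.89 to 6.84 CPM (TMM-scaled counts per 1e+06 counts) with IL-33 and 3.57 to 8.32 CPM in Control. The mesenchymal or pericyte list summed to 4607 to 4864 CPM with IL-33 and 4029 to 4978 CPM in Control, with COL1A1, THY1, VIM and TAGLN well measured and COL3A1 and ACTA2 at 0. The part of cell identity in the levels below was not tested.

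Most reads of the family came from a few members. The 5 members ADAM9, ADAMTS1, ADAMTS5, ADAM15 and ADAM17 held 70.8% of all reads of the 50 genes, and the 11 members at a mean of 10 CPM or more held 93.8%. At the other end, 15 members had 0 counts in all 6 libraries and a further 3 (ADAM20, ADAM3B and ADAMTS8) at most 3 counts in any library. A count of 0 allows a level of up to 0.293 CPM in the deepest library and 0.543 CPM in Control 3, for counting error only. The filter on low counts left 25 members to test, and the other 25 comprised the 15 at 0 and 10 with few reads. Of all 27469 genes in the table, 10205 had 0 counts in all 6 libraries and 12125 were tested. Genes without reads were thus common outside the family too.

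**Figure D1:**
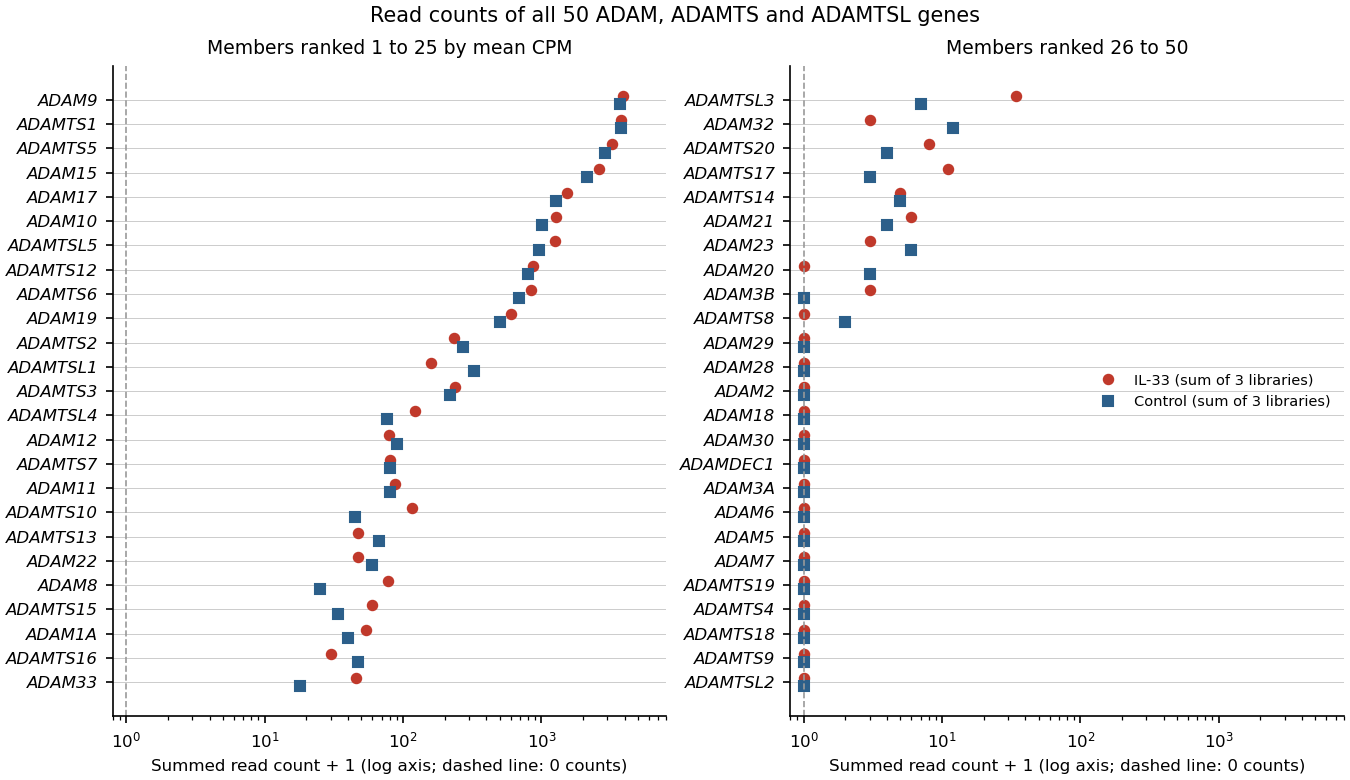
Summed read counts plus 1 (log axis) of all 50 members in the 3 IL-33 libraries (red circles) and the 3 Control libraries (blue squares), ordered by mean CPM in 2 panels. The 15 members on the dashed line have 0 counts in every library, and since the IL-33 libraries hold more reads in total, a small offset to the right for IL-33 is not by itself a difference in level.

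None of the family passed the test for a change with IL-33. Of the 25 tested members, 0 passed an adjusted p of 0.05 in the edgeR quasi-likelihood fit, which adjusted over 12125 genes and called 0% of them. Every member had an adjusted p of 0.999 in this edgeR fit. In bulk RNA, fewer cells using a gene and less RNA of it per cell cannot be told apart. DESeq2 and limma-voom also called 0 members on all 6 libraries, as did edgeR without the low-count filter, which called 0.0174% of genes. The log2 fold change was above 0 in 11 members and below 0 in 14, with a median of -0.04, against a median of -0.01 over all genes tested, of which 48.9% lay above 0. An unadjusted p under 0.05 was found in 3 members (ADAMTSL1, ADAMTS10 and ADAM8), against 2.43% of all genes, and all 3 lay under 10 CPM. The 3 IL-33 values all lay above the 3 Control values in 1 member, ADAMTS10, against 4.54% of all genes, and all below in 0 members, against 3.51%.

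The promoter windows of the 3 members with the smallest p are shown because these genes stand nearest to a difference. They are taken from RefSeq (GRCh38.p14) and run from 250 bases before to 50 after a transcript start, 5′ to 3′ on the gene's strand, with CpG dinucleotides in capitals. ADAMTSL1 has further annotated starts that are not shown. Its window lies inside the annotated gene, which runs from 17906563 to 18910950 on the plus strand. Tags near the transcript end do not show which start was used.
ADAMTSL1, chr9:18473903-18474202, plus strand: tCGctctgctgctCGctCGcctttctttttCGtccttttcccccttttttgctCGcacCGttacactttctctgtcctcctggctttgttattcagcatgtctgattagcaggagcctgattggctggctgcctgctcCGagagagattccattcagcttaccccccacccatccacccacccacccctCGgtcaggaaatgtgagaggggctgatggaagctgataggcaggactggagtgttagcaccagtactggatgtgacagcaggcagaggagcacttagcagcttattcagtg
ADAMTS10, chr19:8610666-8610965, minus strand: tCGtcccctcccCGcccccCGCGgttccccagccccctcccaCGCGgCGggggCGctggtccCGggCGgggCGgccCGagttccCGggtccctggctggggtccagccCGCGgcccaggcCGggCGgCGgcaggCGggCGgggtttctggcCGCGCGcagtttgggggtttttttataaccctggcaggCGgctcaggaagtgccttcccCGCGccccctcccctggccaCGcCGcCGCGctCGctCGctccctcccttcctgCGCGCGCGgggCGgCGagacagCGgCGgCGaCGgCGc
ADAM8, chr10:133276819-133277118, minus strand: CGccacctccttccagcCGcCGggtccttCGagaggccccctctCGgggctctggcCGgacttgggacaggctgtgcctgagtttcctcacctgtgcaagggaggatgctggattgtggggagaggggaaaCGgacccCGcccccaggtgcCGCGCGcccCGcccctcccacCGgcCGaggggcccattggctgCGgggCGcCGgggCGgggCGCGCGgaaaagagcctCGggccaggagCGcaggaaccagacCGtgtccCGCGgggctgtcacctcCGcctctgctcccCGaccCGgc

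The ADAMTSL1 window holds 8 CpGs, and those of ADAMTS10 and ADAM8 hold 43 and 29, where the median over 35116 RefSeq windows is 14. A GC box (GGGCGG, either strand) occurs 6 times in the ADAMTS10 window, 3 times in that of ADAM8 and 0 times in that of ADAMTSL1, and 45.0% of all windows hold it. The AP-1 motif TGANTCA, searched on both strands, has 0 matches in the 3 windows, and 7.71% of all windows hold it. A window was found for 29 of the 50 members, too few to compare promoters across the family.

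For the abundant members the data bound the size of a difference. Among the 11 at 10 CPM or more, log2 fold changes ran from -0.52 to 0.23 with standard errors from 0.12 to 0.32, and the 95% interval lay within -1 to 1 for 10 of them. In genes of that level as a whole it did so for 96.9%. Among the 14 less abundant tested members the standard errors ran from 0.31 to 0.98, and 1 interval lay within those bounds. A change of 1 on the log2 scale could be missed in the others at this depth.

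**Figure D2:**
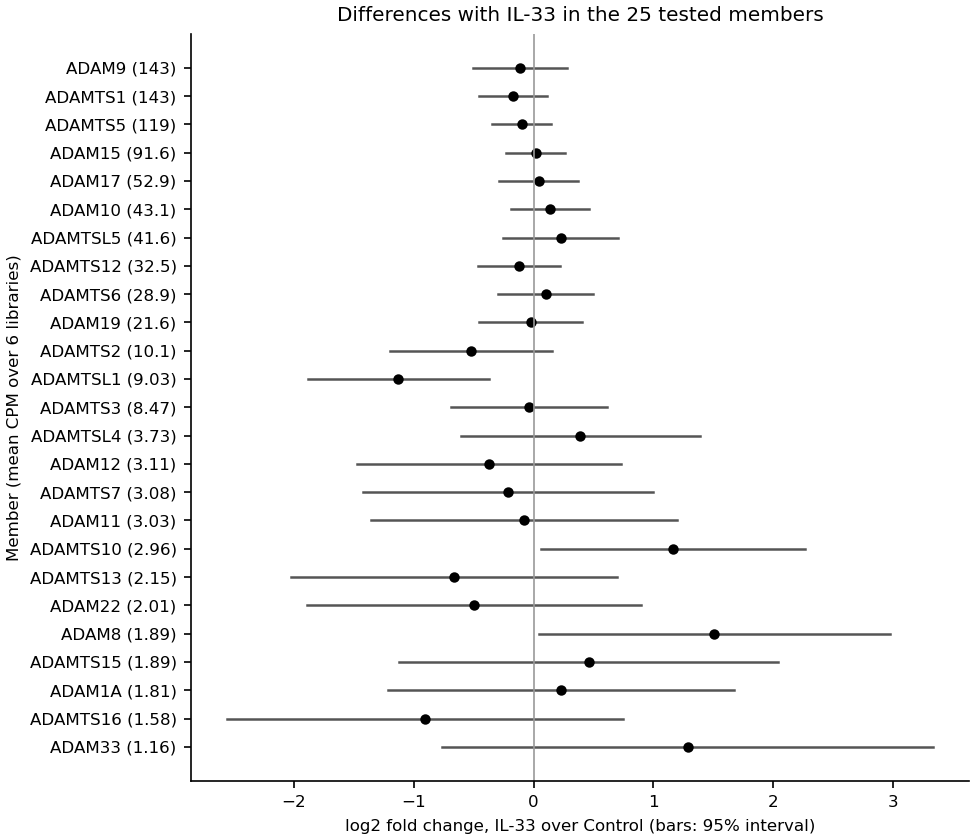
Log2 fold change of IL-33 over Control for each of the 25 tested members, ordered by mean CPM (in brackets), with bars for the 95% interval. The 10 most abundant members have intervals within -1 to 1 on either side of 0, and the intervals widen towards the bottom. The intervals of ADAMTSL1, ADAMTS10 and ADAM8 leave out 0 before adjustment for the number of genes tested.

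Values by library are given for libraries 1, 2 and 3 of each group in that order. ADAM9, a widely expressed sheddase on chromosome 8, had the highest mean over the 6 libraries, 143.2 CPM against 142.9 CPM for ADAMTS1, and lay above 95.2% of all genes in the table. In Control alone ADAMTS1 had the higher mean, 151.2 CPM against 148.6 CPM for ADAM9. ADAM9 had 115, 143 and 155 CPM with IL-33, against 171, 170 and 105 CPM in Control. Controls 1 and 2 lay above every IL-33 library and Control 3 below every one, so the groups overlapped, with a log2 fold change of -0.11 ± 0.18 (SE). Without Control 3 it was -0.31 ± 0.10 (edgeR adjusted p = 0.395).

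ADAM15, a sheddase whose human form carries an integrin-binding RGD sequence, had 92.5, 94.7 and 89.1 CPM with IL-33, against 82.2, 91.2 and 100.1 CPM in Control. The IL-33 values lay inside the Control range, and its log2 fold change of 0.02 ± 0.12 had a 95% interval from -0.23 to 0.26.

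ADAM17, which releases TNF and ligands of the EGF receptor, had 62.3, 54.1 and 44.7 CPM with IL-33 and 60.8, 45.8 and 49.6 CPM in Control. Its log2 fold change was 0.04 ± 0.16, with a 95% interval from -0.29 to 0.38. ADAM10, the main alpha-secretase of the amyloid precursor protein and the enzyme that cuts Notch receptors after ligand binding, had 42.7, 45.2 and 47.7 CPM with IL-33 and 42.7, 45.7 and 34.7 CPM in Control (log2 fold change 0.14 ± 0.16). Control 3 was the lowest library of ADAM10, and without it the log2 fold change was 0.033 ± 0.15. The groups overlapped in both sheddases. ADAM19, which can process neuregulin, had 20.6, 22.2 and 21.3 CPM with IL-33 and 16.98, 22.7 and 25.9 CPM in Control. Here too the IL-33 libraries lay within the Control range, and the log2 fold change was -0.02 ± 0.21.

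The remaining active ADAMs were weak. ADAM12 averaged 2.73 ± 1.04 CPM with IL-33 and 3.50 ± 1.17 CPM in Control (SD, n = 3 each). ADAM33, first known as a gene linked to asthma, averaged 1.68 ± 1.25 CPM with IL-33 and 0.644 ± 0.701 CPM in Control, where Control 2 had 0 counts. ADAM8, a leukocyte-associated sheddase, had 34, 11 and 32 counts with IL-33 (3.62, 1.07 and 3.77 CPM), against 14, 5 and 5 counts in Control (1.39, 0.601 and 0.905 CPM). IL-33 2 lay below Control 1, so the groups overlapped. The log2 fold change was 1.51 ± 0.70, with an unadjusted p of 0.0444 (edgeR adjusted p = 0.999), and it ran from 1.25 to 1.91 with a library left out. By limma-voom the unadjusted p was 0.118. ADAM28, of lymphocytes, ADAMDEC1, known from intestinal macrophages, and ADAM30 had 0 counts, and ADAM21 and ADAM20 had 8 and 2 in all libraries together.

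Of the 8 adhesion-type ADAMs, which lack an active proteinase site, 2 could be tested. ADAM22 and ADAM11, both neuronal proteins that bind LGI family ligands, had log2 fold changes of -0.50 ± 0.67 and -0.08 ± 0.61 at 2.01 and 3.03 CPM over the 6 libraries. ADAM2, ADAM7, ADAM18 and ADAM29, which are known from the male reproductive tract, had 0 counts. ADAM32 and ADAM23 had 13 and 7 counts in all libraries together. Among the 5 symbols that the annotation lists as pseudogenes, ADAM1A was tested (log2 fold change 0.23 ± 0.69 at 1.81 CPM), ADAM3B had 2 counts, and ADAM3A, ADAM5 and ADAM6 had 0. Chromosome 8 holds 9 members, of which ADAM9 had the highest mean of the 50, ADAM32 was barely counted and the other 7 had 0 counts.

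Among the proteoglycanases, which cut aggrecan and versican, ADAMTS1 and ADAMTS5 were abundant and ADAMTS4 and ADAMTS9 had 0 counts in every library. ADAMTS1 had 114, 142 and 148 CPM with IL-33, against 167, 167 and 120 CPM in Control. As with ADAM9, Controls 1 and 2 lay above all IL-33 libraries and Control 3 did not. The log2 fold change was -0.17 ± 0.13, and -0.31 ± 0.10 without Control 3 (edgeR adjusted p = 0.387). ADAM9 and ADAMTS1 had nearly the same level in each library: the ratio of ADAM9 to ADAMTS1 ran from 1.01 to 1.05 in the IL-33 libraries, and was 1.02 in Controls 1 and 2 and 0.872 in Control 3.

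ADAMTS5 had 115, 119 and 111 CPM with IL-33, against 104, 128 and 138 CPM in Control, with a log2 fold change of -0.10 ± 0.12. In this gene Control 3 was the highest library, and without it the log2 fold change was -0.012 ± 0.10. The pair are neighbours on chromosome 21 and on the same strand (ADAMTS1 from 26835747 to 26845409 and ADAMTS5 from 26917912 to 26966513, GRCh38), 72502 bases apart with no annotated gene between them. ADAMTS15 was near the limit at 2.14 ± 0.842 CPM with IL-33 and 1.63 ± 1.61 CPM in Control (SD, n = 3 each). Its Control mean rests on Control 3, with 19 of the 33 Control counts, and was 0.726 CPM over Controls 1 and 2. The log2 fold change was 0.46 ± 0.76 with Control 3 and 1.51 ± 0.92 without it (edgeR adjusted p = 0.848). ADAMTS20 and ADAMTS8 had 10 and 1 counts in all libraries together.

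ADAMTS2 and ADAMTS3 remove the amino-terminal propeptide of fibrillar procollagens, and ADAMTS3 also activates VEGF-C. ADAMTS2 had 8.10, 9.67 and 6.96 CPM with IL-33, against 11.8, 6.97 and 17.2 CPM in Control. Control 3 was the highest library, and the log2 fold change was -0.52 ± 0.32 with it and -0.19 ± 0.33 without it. Without Control 2, the lowest Control, it was -0.80 with an unadjusted p of 0.0209 (edgeR adjusted p = 0.998). ADAMTS3 averaged 8.40 ± 0.821 CPM with IL-33 and 8.54 ± 2.73 CPM in Control (SD, n = 3 each). ADAMTS14, of the same group, had 8 counts in all.

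ADAMTS12, which cuts cartilage oligomeric matrix protein, had 31.2, 29.2 and 33.01 CPM with IL-33 and 33.7, 31.6 and 36.6 CPM in Control, with a log2 fold change of -0.12 ± 0.17. ADAMTS6 had 31.9, 25.0 and 33.1 CPM with IL-33 and 30.9, 30.2 and 22.3 CPM in Control (log2 fold change 0.10 ± 0.19). The groups overlapped in both. ADAMTS7, ADAMTS13, which cuts von Willebrand factor, and ADAMTS16 lay between 1.58 and 3.08 CPM over the 6 libraries and had log2 fold changes of -0.21 ± 0.58, -0.67 ± 0.65 and -0.91 ± 0.79. ADAMTS17 had 12 counts in all libraries together, and ADAMTS18 and ADAMTS19 had 0.

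ADAMTS10, a close relative of ADAMTS6 that acts on fibrillin microfibrils, was the one member whose groups did not overlap. It had 51, 34 and 30 counts with IL-33 (5.43, 3.32 and 3.54 CPM), against 19, 16 and 9 counts in Control (1.89, 1.92 and 1.63 CPM). The log2 fold change was 1.16 ± 0.53 with an unadjusted p of 0.0395 (edgeR adjusted p = 0.999). The fold change stayed between 0.91 and 1.30 with a library left out. In those edgeR fits the unadjusted p ran from 0.0392 to 0.180 and was under 0.05 only without IL-33 2. It was 0.0645 with a replicate block in edgeR and 0.0519 with limma-voom.

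ADAMTSL1, a secreted matrix protein also called punctin, had the smallest p among the tested members, and the promoter window printed for it had the fewest CpGs of the 3. It had 59, 45 and 55 counts with IL-33 (6.29, 4.39 and 6.48 CPM), against 179, 112 and 32 counts in Control (17.8, 13.5 and 5.79 CPM). Control 3 lay among the IL-33 libraries, while Controls 1 and 2 were above them all. The log2 fold change was -1.13 ± 0.36 (95% interval from -1.89 to -0.38), with an unadjusted p of 0.00547 (edgeR adjusted p = 0.999). Without Control 3 it was -1.45 ± 0.31 with an adjusted p of 0.0351 by edgeR, where 0.0476% of 12611 genes were called, 0.0273 by limma-voom and 0.0603 by DESeq2. In that edgeR fit 26 members were tested and 4 had an unadjusted p under 0.05, against 6.3% of all genes: ADAMTSL1, ADAM9, ADAMTS1 and ADAMTSL3. ADAMTSL3 passed the filter there only through its 21 and 11 counts in IL-33 1 and 2. Controls 1 and 2 had 0 counts of it, so its p follows from leaving out Control 3 and counts for nothing here. The call of ADAMTSL1 leaves out the Control library that went against it, and without Control 1 its log2 fold change was -0.77.

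**Figure D3:**
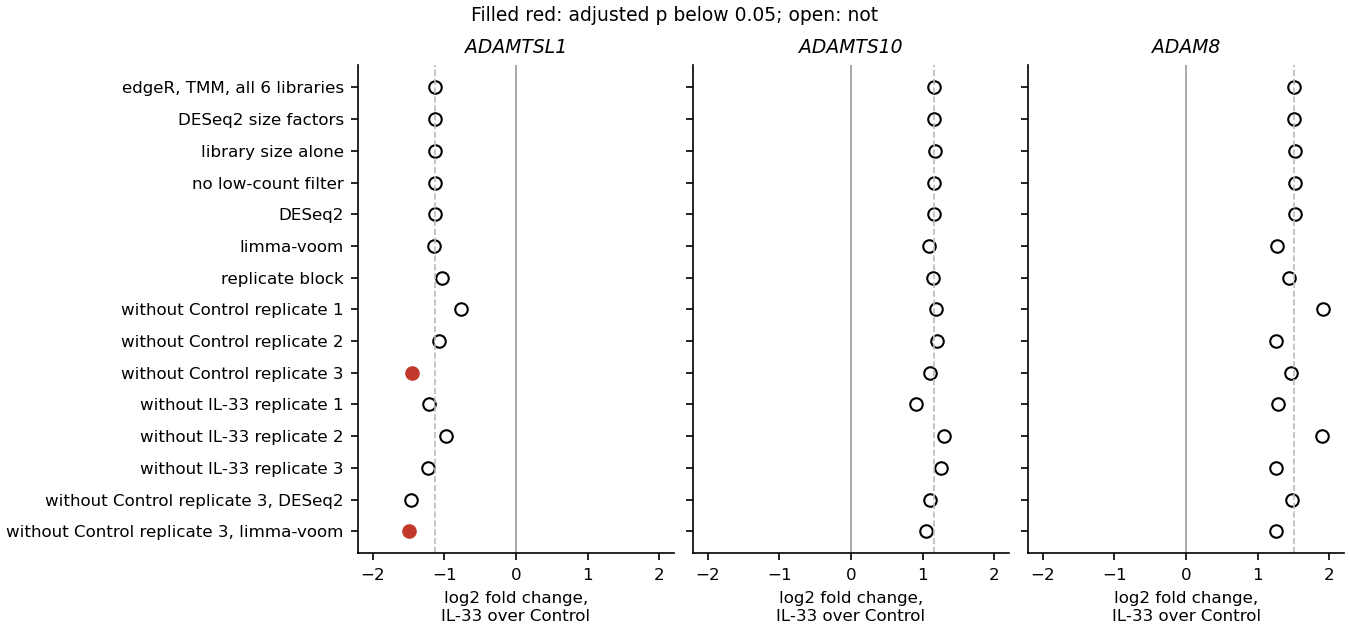
Log2 fold change of IL-33 over Control for ADAMTSL1, ADAMTS10 and ADAM8 under each setting, one row a setting, with a dashed line at the value from all 6 libraries and a solid line at 0. ADAMTSL1 lies between -1.49 and -0.77 and passes the threshold (filled red) in 2 fits, both without Control 3, while ADAMTS10 and ADAM8 stay above 0 and never pass.

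The other ADAMTSL genes differed widely in level. ADAMTSL5 had 34.6, 45.7 and 54.9 CPM with IL-33, against 46.0, 44.0 and 24.6 CPM in Control. Its log2 fold change of 0.23 ± 0.22 rests on Control 3, the lowest library, and was 0.00 ± 0.16 without it. ADAMTSL4, a fibrillin-associated protein of the lens zonule, averaged 4.21 ± 1.55 CPM with IL-33 and 3.24 ± 0.649 CPM in Control (SD, n = 3 each). ADAMTSL3 was not tested on all 6 libraries: it had 21, 11 and 1 counts with IL-33, and 6 counts in Control 3 and 0 in the other Control libraries. ADAMTSL2 had 0 counts.

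**Figure D4:**
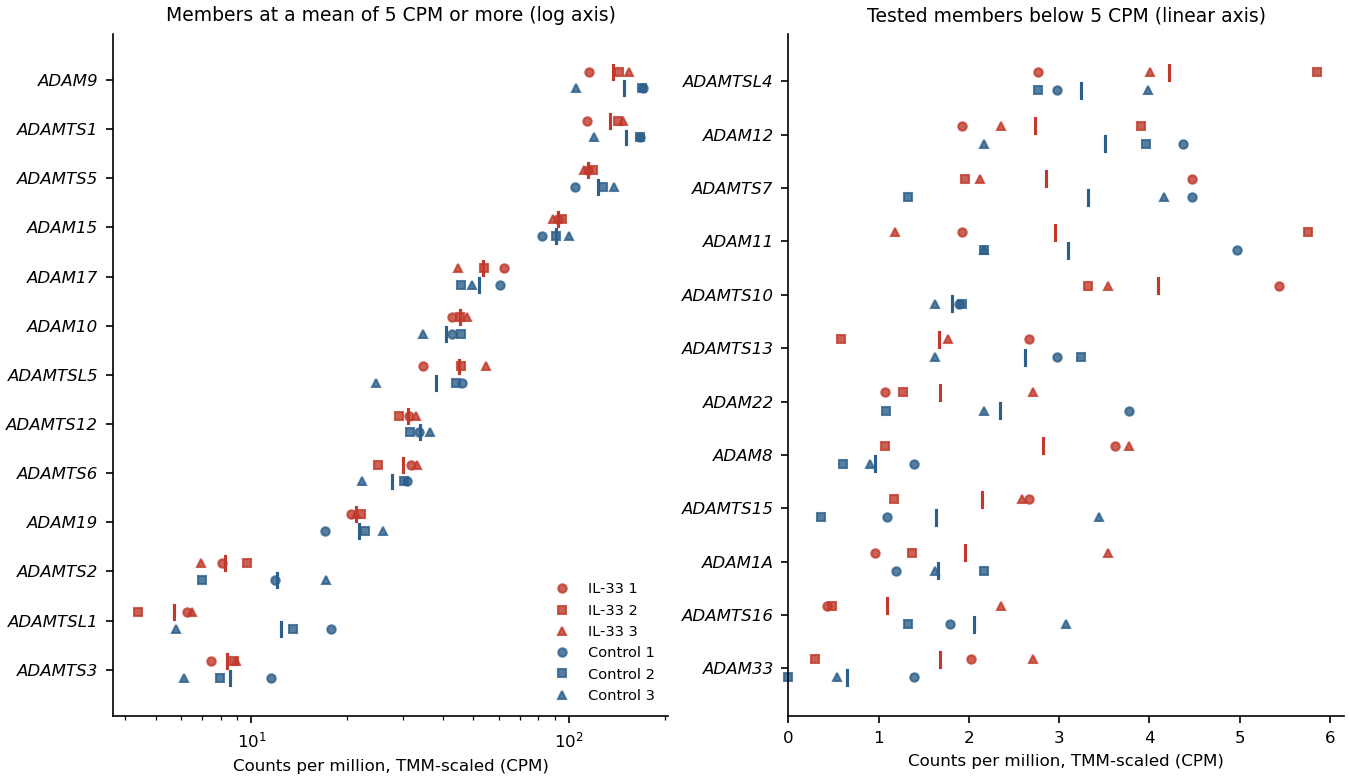
Level of each tested member in every library in CPM, with IL-33 libraries in red above Control libraries in blue, symbols for the replicate number and a vertical tick at each group mean. In the left panel, of the more abundant members, blue triangles (Control 3) often lie outside the other Controls. They fall left of them in ADAM9, ADAMTS1, ADAM10, ADAMTSL5, ADAMTS6, ADAMTSL1 and ADAMTS3. They fall right of them in ADAMTS5, ADAM15, ADAMTS12, ADAM19 and ADAMTS2, and between them in ADAM17.

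Control 3 lay at an end of the range in most abundant members. Among the 11 at 10 CPM or more it was the lowest of the 6 libraries in 4 and the highest in 5. Over all genes tested at that level it was lowest in 27.3% and highest in 30.1%. Its log2 difference from the mean of Controls 1 and 2 was -0.70 in ADAM9, -0.47 in ADAMTS1, -0.87 in ADAMTSL5 and -1.43 in ADAMTSL1, and 0.87 in ADAMTS2.

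The 19 ADAMTS genes summed to 323, 343 and 354 CPM with IL-33, against 372, 379.7 and 356 CPM in Control. All 3 IL-33 sums lay below the 3 Control sums, but narrowly, with 353.8 CPM in IL-33 3 and 355.6 CPM in Control 3. Among single genes tested, 3.51% had all IL-33 values below Control. ADAMTS1 and ADAMTS5, the most abundant genes in this sum, each overlapped between groups, and the sum was not tested. The other sums computed for the family, given here or not, overlapped. All 50 members together came to 715, 773 and 793 CPM with IL-33, against 830, 826 and 717 CPM in Control. The 13 ADAMs of the proteinase type summed to 358 ± 14.1 CPM with IL-33 and 360.1 ± 35.9 CPM in Control (SD, n = 3 each), and the 7 proteoglycanases to 252 ± 18.1 CPM with IL-33 and 277 ± 16.7 CPM in Control. In these last 3 sums the lowest Control library lay below the highest IL-33 library.

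Of 26 regulators of the family 22 could be tested, 8 with a log2 fold change above 0 and 14 below, and 0 changed. TIMP3, the tissue inhibitor that acts on ADAM17 and on ADAMTS4 and ADAMTS5, had 7.46, 8.01 and 5.07 CPM with IL-33 and 11.1, 6.97 and 9.23 CPM in Control (log2 fold change -0.41 ± 0.32). RHBDF2, which encodes iRhom2, the carrier of ADAM17 to the cell surface, had 18.8, 14.9 and 20.7 CPM with IL-33, against 13.6, 14.1 and 11.6 CPM in Control. Its IL-33 values all lay above the Control values, with a log2 fold change of 0.46 ± 0.23 and an unadjusted p of 0.0587, which did not pass. Its relative RHBDF1 had a log2 fold change of 0.05 ± 0.28.

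The proprotein convertases that remove the ADAM prodomain were represented by FURIN, with a log2 fold change of 0.30 ± 0.23, and PCSK7, whose IL-33 values of 23.2, 21.0 and 18.5 CPM lay below the Control values of 24.9, 28.4 and 24.6 CPM (log2 fold change -0.31 ± 0.19). Neither passed. RECK, a membrane-anchored inhibitor, had a log2 fold change of -0.02 ± 0.26, and POFUT2, which adds O-fucose to thrombospondin repeats, had one of 0.11 ± 0.19. SH3PXD2B, a podosome scaffold, and LRP1, the endocytic receptor that clears ADAMTS5, had log2 fold changes of -0.37 ± 0.22 and -0.35 ± 0.22 with overlapping groups.

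Of 48 listed membrane substrates 32 could be tested, 11 with a log2 fold change above 0 and 21 below, and 0 changed. The EGF receptor ligand AREG, shed by ADAM17, had 5.22, 5.76 and 10.7 CPM with IL-33, against 3.67, 3.01 and 3.80 CPM in Control (log2 fold change 1.05 ± 0.40, unadjusted p of 0.018). IL6R, whose soluble form arises by shedding, had 1.49, 2.34 and 1.18 CPM with IL-33, against 4.17, 3.61 and 4.52 CPM in Control (log2 fold change -1.28 ± 0.54, unadjusted p of 0.0294). In these 2 genes the groups did not overlap, in opposite directions, and neither passed the adjusted test. The more abundant ligand HBEGF had 239, 239 and 216 CPM with IL-33 and 269, 227 and 299 CPM in Control (log2 fold change -0.20 ± 0.11), and the weakly measured TGFA had a log2 fold change of -1.07 ± 0.66.

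Matrix substrates and microfibril partners gave 17 tested genes of 26, 7 above 0 and 10 below, and 0 changed. The 4 with the smallest p were FBN2 (log2 fold change -0.55 ± 0.36), COL1A2 (0.35 ± 0.24), LTBP3 (0.23 ± 0.22) and THBS1 (0.12 ± 0.12), and their groups overlapped. Over the 3 lists together, 70 genes were tested, with a median log2 fold change of -0.04. In the edgeR fit 2 of them had an unadjusted p under 0.05, against 2.43% of all genes. The groups did not overlap in 6, against 8.06% of all genes. Those 6 were RHBDF2, PCSK7, AREG and IL6R, and, named after their values were seen, TSPAN10 and AXL, both with all IL-33 values below Control (log2 fold changes -0.59 and -0.11).

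Several members share ground with other genes, and the strand setting of the authors' counting is not given in the sources used here. ADAM19 overlaps CYFIP2 (3234 counts) and NIPAL4 on the opposite strand, ADAM17 overlaps IAH1 (1086 counts), ADAMTS13 overlaps REXO4 (3572 counts) and ADAMTS7 overlaps MORF4L1 (20107 counts), all on the opposite strand. On the same strand, ADAM1A overlaps MAPKAPK5 (1387 counts, against 92 for ADAM1A) and ADAM10 overlaps the pseudogene HSP90AB4P (108 counts). Reads of the 4 opposite-strand members cannot be told apart from their partners' if strand was not used in counting, and how the counting assigned reads in the 2 same-strand overlaps is not stated. The values of these members are uncertain to that extent.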

How the data were processed

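Per the labels' protocols, TRIZOL-extracted RNA of HMC3 cells went into Lexogen QuantSeq 3' FWD libraries. The authors deposited raw counts by gene symbol in 1 table, all of them whole numbers. The submitters' processing notes list STAR 2.7.5a, HTSeq 0.6.1, edgeR and hg38 without roles; annotation and filters are not stated there. 1 row without values was left out.

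The count test used edgeR 4.0.16 (R 4.3.3) with filterByExpr (count minimum 10, total 15), TMM scaling, the robust quasi-likelihood test on group alone, and Benjamini-Hochberg adjusted p-values over every gene tested, at 0.05. The step was tested on simulated data. Alternatives were DESeq2 1.42.0, limma-voom (limma 3.58.1), other scalings and filters, a replicate block, and each library left out. Positions came from GENCODE release 29 (GRCh38). Standard errors of the log2 fold changes were derived from the fold change and the F statistic of the edgeR test. The 95% intervals were formed from these errors with the t distribution and are approximate. They include the spread between libraries. The level that a count of 0 allows (3 counts) covers counting error only.

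The members, the gene lists and the naming rule were set with earlier results of these data known. The rule names members at 10 CPM or more, at an unadjusted p under 0.05 or with groups apart, the best known sheddases and aggrecanases, and, from each partner list, the 4 smallest p plus set regulators.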

Additional observations from a re-analysis of the deposited data

How the results depend on the processing

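The count of members changed was 0 on all 6 libraries under each scaling, filter and tool tried. With a library left out it ran from 0 to 1, the 1 being ADAMTSL1 without Control 3, also called by limma-voom and not by DESeq2. Over all genes 0 changed in the edgeR fit, against 3 with no filter on low counts, 1 with DESeq2 and 0 to 6 with a library left out; without Control 3 the count was 6 by edgeR, 2 by DESeq2 and 15 by limma-voom. Partner genes changed in 0 of these fits. The median log2 fold change of the members was -0.04 and ran from -0.053 to 0.067 with a library left out, the highest without Control 1.

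Some fold changes near 0 turned sign; the cause was not tested. ADAM19 was 0.037 by limma-voom. With a library left out, ADAM19 ran from -0.18 to 0.109, ADAM15 from -0.053 to 0.087, ADAM17 from -0.077 to 0.17 and ADAMTS6 from -0.029 to 0.22. Without Control 3, DESeq2 gave -0.029 for ADAMTS6 and 0.108 for ADAM19, and limma-voom gave 0.0049 for ADAMTS5, -0.033 for ADAMTSL5, -0.050 for ADAMTS6 and 0.14 for ADAM19.

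Replicate numbers were not found to pair the libraries: deviations of same-numbered libraries correlated at -0.086, 0.027 and -0.136. With the replicate block 0 genes and 0 members changed, 213 genes had an unadjusted p under 0.05 against 295 without it, and ADAMTSL1 had a log2 fold change of -1.03. Depth limits the 14 tested members under 10 CPM most.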
